A study of Sus scrofa with 3 samples.

Results

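miR-590 and miR-330 are miRNA precursors that are known in other mammals and were found here in 3 porcine skeletal muscles, with reads from both arms of each hairpin. They were chosen by the reads of their 5p and 3p arms in these same libraries, so all differences between libraries given for them below are a description, and no test was made on them. Their rows were taken from the table of conserved miRNAs by the number shared by most of the precursors of other mammals that it gives. This found 4 listed arms of 152 listed miRNAs, on 2 precursor positions of 44 that are listed with both arms. Small RNA was sequenced from the peroneal longus (PL, spelled peroneal longu in the labels) as the red, the psoas major muscle (PMM) as the intermediate, and the longissimus dorsi muscle (LDM) as the white fiber type. The pigs were Landrace females aged 210 days, with no treatment or genotype stated, and each muscle has 1 library. Small RNA of 3 pigs was pooled for PL, pooling is not described separately for PMM and LDM, and data of PMM and LDM came from earlier sequencing of those animals, so that the sequencing batch and the difference of PL from the other muscles cannot be told apart. There are no replicates, the spread between animals is not known, and the intervals given cover counting error only.

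A miRNA gene is transcribed into a hairpin, from which Drosha and Dicer cut a short duplex of a 5p and a 3p strand. One strand is usually loaded into Argonaute and guides it to mRNAs by the bases near its 5' end, the seed, while the other is degraded, so that the read ratio of the arms is used as a measure of which strand was retained. In human, the gene of miR-590 lies in an intron of EIF4H, which encodes a translation initiation factor, and that of miR-330 in an intron of EML2, which encodes a microtubule-associated protein. miR-590-5p has the same seed as miR-21-5p, and miR-330-5p the same as miR-326. miR-590-3p is known for promoting proliferation of cardiomyocytes in rodents.

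The sequences of the 4 arms are shown because the seed decides which mRNAs each arm can bind, and because the 2 arms of a hairpin differ in it. They are given 5' to 3' as the table lists them, in DNA letters, with bases 2 to 8 in capitals.
miR-590-5p: gAGCTTATtcataaaagtacag
miR-590-3p: tAATTTTAtgtataagctagt
miR-330-5p: tCTCTGGGcctgtgtcttaggct
miR-330-3p: cAAAGCACacggcctgcagaga

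The 4 seeds differ from each other, and 0 other listed miRNAs share any of them. miR-21 and miR-326 have 0 rows in this table. miR-590 maps to chromosome 3 from 11024985 to 11025078 on the plus strand of Sscrofa10.2, and miR-330 to an unplaced scaffold, which the table does not name, from 17714 to 17821 on the minus strand. Without a genome of that build, overlap with pig genes was not looked up here. The table gives precursors of 6 other mammals for miR-590 (horse, dog, human, chimpanzee, orangutan, and mouse) and of 7 for miR-330 (cattle, dog, human, gorilla, chimpanzee, mouse, and rat), against a median of 5 per listed miRNA.

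The listed miR-330-3p starts 1 base after the stretch that the table itself writes in capitals in the precursor, whereas the other 3 arms start with theirs. That stretch is given here with its own bases 2 to 8 in capitals, to show how the shift moves the seed.
miR-330-3p, precursor capitals: gCAAAGCAcacggcctgcagaga

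Of 96 listed miRNAs that match their precursor exactly and overlap such capitals, 76 start with them and 8 start 1 base later, as miR-330-3p does. By their heading, the read columns refer to the most abundant sequences. Whether reads with the other start are included is not given in the sources used here. The listed miR-330-5p ends 1 base beyond its capitals, at 23 nt against 22 nt.

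The listed hairpins are shown with both listed arms in capitals, since the arms compared below are the strands of these stems.
miR-590 precursor: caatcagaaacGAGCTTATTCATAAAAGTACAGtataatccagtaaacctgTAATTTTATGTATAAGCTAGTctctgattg
miR-330 precursor: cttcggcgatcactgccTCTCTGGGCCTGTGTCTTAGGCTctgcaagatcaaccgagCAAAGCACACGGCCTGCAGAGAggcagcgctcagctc

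All 4 arms were found exactly in these precursors. The miR-590 hairpin has 81 bases, against 94 positions spanned on the genome, and that of miR-330 has 94 bases in one entry and 89 in the other, against 108 positions. Only 32 of the 152 listed miRNAs have a precursor as long as its span. In the predicted fold, the arms of miR-590 form 16 base pairs with each other at a free energy of -29.0 kcal/mol, and those of miR-330 form 18 pairs at -45.0 kcal/mol in the longer entry. Among the first 4 bases of each arm, miR-590-5p has 1 A or T and miR-590-3p has 4, while miR-330-5p has 2 and miR-330-3p has 3. The GC content is 31.8% in miR-590-5p and 19.05% in miR-590-3p, the lowest of the 145 unique sequences listed, whose median is 45.8%. It is 56.5% in miR-330-5p and 59.1% in miR-330-3p. The hairpins thus differ in base composition, and the 5p minus 3p difference within each (12.8 points for miR-590 and -2.57 points for miR-330) lies inside the range of -18.2 to 23.8 points over the 19 precursor positions compared below.

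The 5p arm of miR-590 had few reads in PL and many in PMM and LDM, while its 3p arm was the more abundant one in PL. PL had 11 reads of miR-590-5p, PMM had 111, and LDM had 122. As reads per 1000000 raw reads (RPM), these are 1.20 RPM (95% Poisson interval 0.599 to 2.15) in PL, 6.01 RPM (4.95 to 7.24) in PMM, and 7.34 RPM (6.10 to 8.76) in LDM. The interval of PL lies below those of PMM and LDM, which overlap. PL had 105 reads of miR-590-3p, PMM had 152, and LDM had 95, or 11.5 RPM (9.37 to 13.9) in PL, 8.23 RPM (6.98 to 9.65) in PMM, and 5.72 RPM (4.62 to 6.99) in LDM. The order of its levels was the reverse of that of miR-590-5p, and the intervals of neighbours in this order overlap.

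The 5p share of the reads of both miR-590 arms was 9.48% (95% Clopper-Pearson interval 4.83% to 16.3%) in PL, 42.2% (36.2% to 48.4%) in PMM, and 56.2% (49.3% to 62.9%) in LDM. The 3p arm had 9.55 times the reads of the 5p arm in PL and 1.37 times in PMM, and the 5p arm had 1.28 times those of the 3p arm in LDM. The 3 shares thus followed the order red, intermediate, white, and the arm with more reads was 3p in PL and PMM and 5p in LDM. Summed over both arms, miR-590 was at 12.6 RPM (10.5 to 15.2) in PL, 14.2 RPM (12.6 to 16.1) in PMM, and 13.1 RPM (11.4 to 14.9) in LDM. With raw reads as library total these sums overlap, and the ratio of PL to PMM was 0.888 (95% interval 0.707 to 1.11) and that of PL to LDM 0.969 (0.767 to 1.22). On the log2 scale these are -0.17 and -0.046, and they were -1.72 and -1.82 when scaled to the sum of conserved reads and turned to 0.26 and 0.15 when miR-26b-5p was left out of that sum. They were -0.17 and -0.38 by median of ratios, and -0.37 and -0.73 by the trimmed mean of M values. Whether the sum was alike in the 3 muscles thus depends on the library total.

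For miR-330 the arm that was low in PL was the 3p arm. PL had 21 reads of miR-330-3p, PMM had 185, and LDM had 134, or 2.29 RPM (1.42 to 3.50) in PL, 10.02 RPM (8.63 to 11.6) in PMM, and 8.06 RPM (6.76 to 9.55) in LDM. PL lies below PMM and LDM, whose intervals overlap. PL had 21 reads of miR-330-5p, PMM had 11, and LDM had 17, or 2.29 RPM (1.42 to 3.50) in PL, 0.596 RPM (0.297 to 1.07) in PMM, and 1.02 RPM (0.596 to 1.64) in LDM. It had the most reads in the library with the fewest raw reads, yet all 3 values rest on at most 21 reads.

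The 5p share of miR-330 was 50% (95% Clopper-Pearson interval 34.2% to 65.8%) in PL, 5.61% (2.83% to 9.82%) in PMM, and 11.3% (6.70% to 17.4%) in LDM. The arms had equal reads in PL, and the 3p arm had 16.8 times the reads of the 5p arm in PMM and 7.88 times in LDM. Unlike for miR-590, the intervals of the shares of PMM and LDM overlap. The 3 shares as measured do not follow the order of fiber color, but these reads do not settle the order of PMM and LDM. Both arms together were at 4.58 RPM (3.30 to 6.19) in PL, 10.6 RPM (9.18 to 12.2) in PMM, and 9.09 RPM (7.69 to 10.7) in LDM. The summed level of miR-330 in PL was 0.431 of that in PMM (0.301 to 0.605) and 0.504 of that in LDM (0.349 to 0.714). In bulk tissue, fewer cells of a type and less RNA per cell cannot be told apart.

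**Figure D1:**
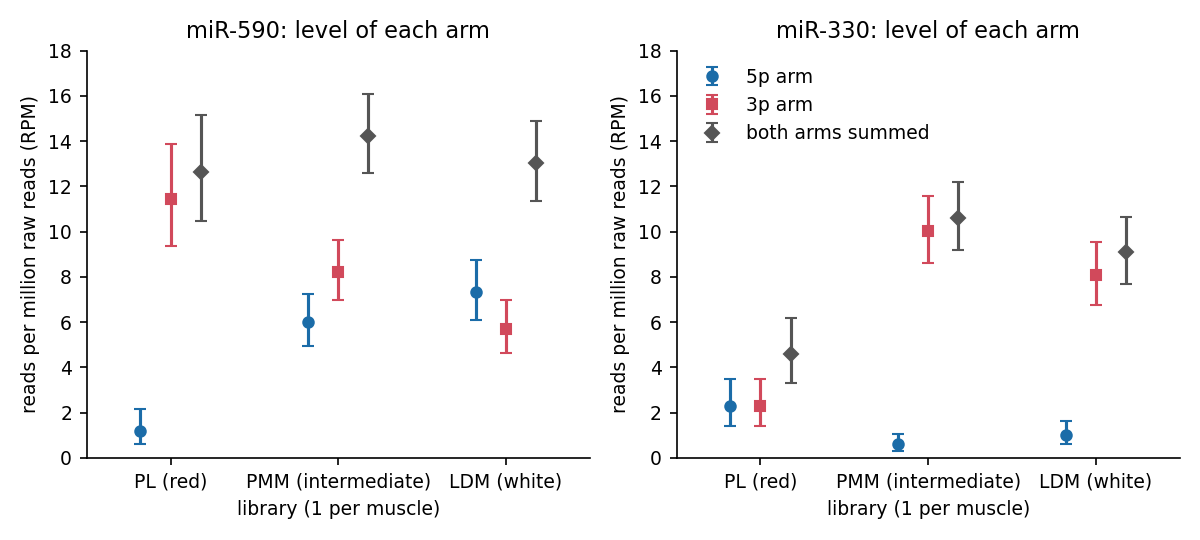
Level of miR-590 (left) and miR-330 (right) in RPM on raw reads, by library from PL over PMM to LDM. Circles are the 5p arm, squares the 3p arm, and diamonds their sum, with exact 95% Poisson intervals and 1 library per muscle. The 5p arm of miR-590 is lowest in PL at 1.20 RPM, while the sum on raw reads lies between 12.6 and 14.2 RPM. Other library totals move the differences of this sum. For miR-330 the 3p arm and the sum are lowest in PL.

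The change of the arm ratio between libraries was computed as the log2 of the 5p to 3p ratio in one library over that in another, with 0.5 read added to each arm. For miR-590 it was -2.75 in PL over PMM (95% exact interval -3.91 to -1.81), -3.56 in PL over LDM (-4.73 to -2.61), and -0.81 in PMM over LDM (-1.36 to -0.27). For miR-330 it was 4.01 in PL over PMM (2.72 to 5.45), 2.94 in PL over LDM (1.73 to 4.22), and -1.07 in PMM over LDM (-2.38 to 0.14). The arm ratio in PL was therefore shifted toward 3p for miR-590 and toward 5p for miR-330. The comparisons of PL with PMM and with LDM share the PL library and are not separate evidence. In PMM against LDM, both precursors had a lower 5p to 3p ratio in PMM, and for miR-330 the interval includes 0.

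Changes of this size were common among the listed precursor positions, so they are not particular to these 2. Whether each listed position is a miRNA hairpin, and its reads the strands of a duplex, was not checked here. Of the positions with at least 10 reads on each arm over all libraries, and with reads in both libraries compared, the ratio differed over 2-fold in 66.7% (12 of 18) in PL over PMM, 88.9% (16 of 18) in PL over LDM, and 31.6% (6 of 19) in PMM over LDM. These counts include miR-590 and miR-330 themselves, which were chosen on these reads. Both miR-590 and miR-330 were past 2-fold in both comparisons with PL, and in PMM over LDM miR-330 was, at 2.10-fold, while miR-590 was not, at 1.75-fold. By size of the change, miR-590 was at rank 8 of 18, 8 of 18, and 8 of 19 in these comparisons, and miR-330 at rank 4, 10, and 5. The median size over all positions was 2.49, 3.10, and 0.65 on the log2 scale. Some of the changes past 2-fold rest on few reads. In PL over PMM the interval includes 0 for some of them, such as miR-377 (-6.22 to 0.28) and miR-3591 (-0.075 to 8.95). In PL over PMM, 5 positions moved past 2-fold toward 5p and 7 toward 3p, and in PL over LDM 9 and 7, so both directions seen in miR-590 and miR-330 occurred in other precursors. Of the 18 positions with reads in every library, 8 did not have the same leading arm in all 3, among them miR-590 and, through its equal reads in PL, miR-330. In 6 of the 8, the leading arm went from 5p to 3p or back, and the others count through a tie. Some of these rest on a small difference, such as 112 against 113 reads of miR-5105 in PL. For miR-590, the interval of the 5p share in LDM (49.3% to 62.9%) includes 50%.

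**Figure D2:**
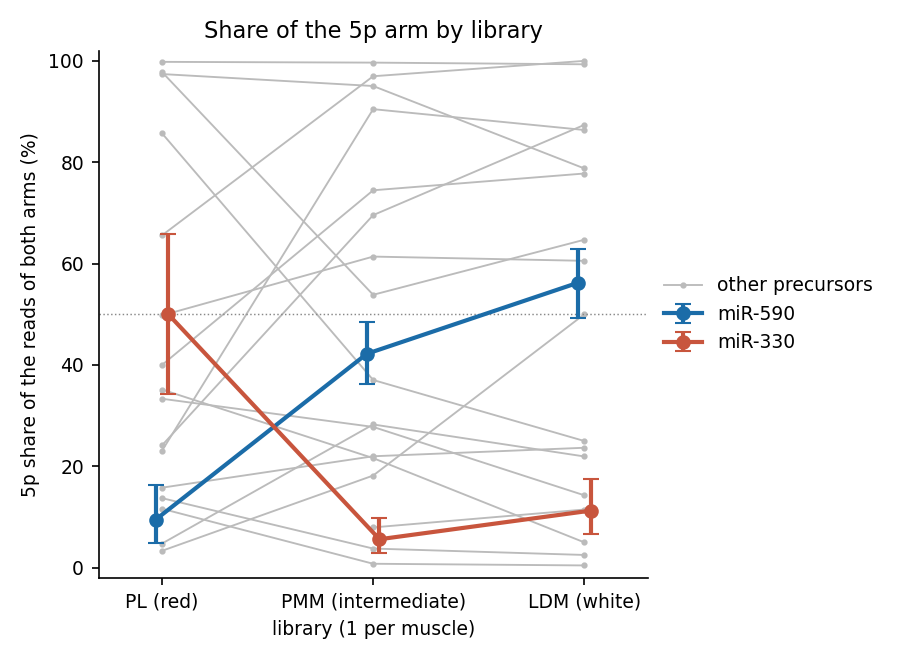
Share of the 5p arm in the reads of both arms (%), by library, for miR-590, miR-330, and the other 17 precursor positions with at least 10 reads on each arm (gray lines). Bars are 95% Clopper-Pearson intervals, the dotted line is 50%, and a position without reads in a library has no point there. miR-590 goes through 9.48%, 42.2%, and 56.2% from PL to LDM and miR-330 through 50%, 5.61%, and 11.3%.

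**Figure D3:**
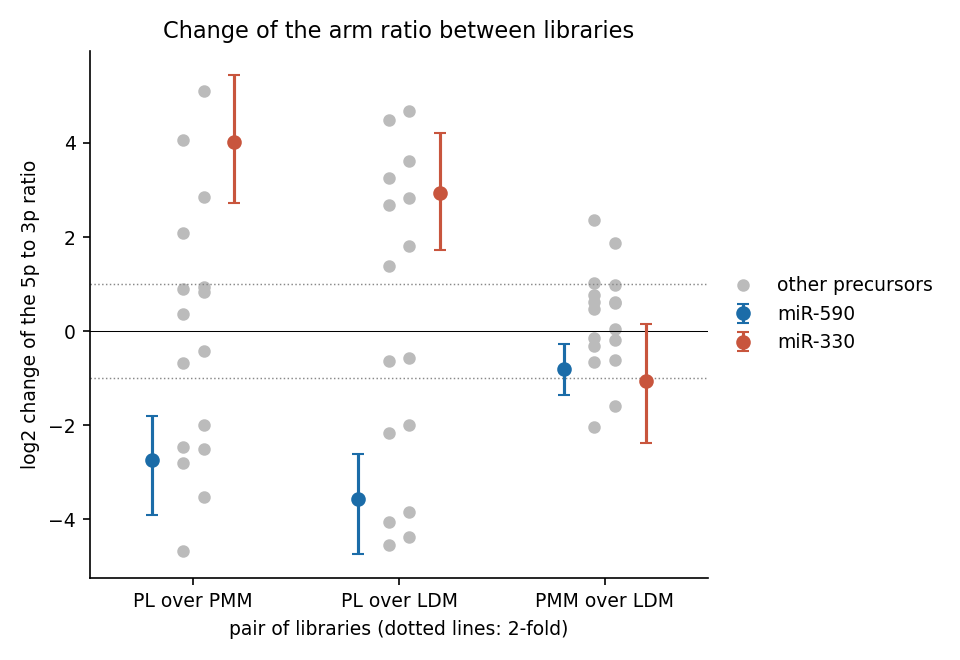
Log2 change of the 5p to 3p ratio for each pair of libraries, with 0.5 read added to each arm, for miR-590 and miR-330 with exact 95% intervals and for the other precursor positions (gray). Dotted lines mark 2-fold. miR-590 and miR-330 lie on opposite sides of 0 in both comparisons with PL and within the range of the gray points.

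The precursors most like each of them were taken by the distance between the log2 arm ratios of the 3 libraries, each centered on its own mean, among the 19 positions. Nearest to miR-590 were miR-188, from a cluster on chromosome X in mammals, at a distance of 0.56, miR-2904 at 0.66, and miR-377 at 0.92. Their 5p shares were 65.6% for PL, 97.0% for PMM, and 100% for LDM in miR-188, where LDM had 13 reads in all, 24.1%, 69.6%, and 87.4% in miR-2904, and 3.33%, 18.2%, and 50% in miR-377, which belongs to the imprinted DLK1-DIO3 cluster. As for miR-590, each of these shares went up from PL over PMM to LDM, which follows largely from choosing them by these ratios. The 3p arm of miR-188 had 1 read in PMM and 0 in LDM, so its ratios there depend on the added reads. The share of miR-377 in LDM rests on 4 reads of each arm. Nearest to miR-330 by this measure was miR-34b at 0.38, but it had 0 reads in PL, where its ratio is that of the added reads alone and was not measured. It was followed by miR-2887 at 1.12, with 97.8% for PL, 53.8% for PMM, and 64.7% for LDM, and by miR-3591 at 1.32, with 85.7%, 37.0%, and 25.0% on at most 27 reads per library. The distance between miR-590 and miR-330 was 5.41.

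As levels of single arms, 2 of the 4 arms were over 1.5-fold lower in PL than in PMM, against 46.2% of 106 unique miRNAs with at least 3 reads over the libraries, and 1 was higher, against 34.9%. In PL against LDM, 2 were lower, against 42.9% of 105, and 2 were higher, against 41.9%. In PMM against LDM, 1 of the 4 was lower, against 17.6% of 108, and 0 were higher, against 52.8%. These counts moved with the library total. Scaled by the trimmed mean of M values, 2 of the 4 arms were lower in PMM than in LDM and 0 higher, against 33.3% of all miRNAs in each direction, and 2 were lower in PL than in LDM and 0 higher, against 51.4% and 30.5%. Scaled to the sum of conserved reads, 3 of the 4 were lower in PL than in PMM, against 67.0%, and 4 were lower in PL than in LDM, against 68.6%. With raw reads, miR-590-5p and miR-330-3p were the lower arms in PL in both cases. miR-590-5p was 0.199 of its level in PMM (95% interval 0.0968 to 0.371) and 0.163 of that in LDM (0.0795 to 0.303), and miR-330-3p was 0.229 of its level in PMM (0.138 to 0.360) and 0.284 of that in LDM (0.170 to 0.452). These arms stayed lower in PL with each of the 4 other library totals tried.

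The higher arms depended on the library total. miR-330-5p in PL was 3.84 times its level in PMM (1.77 to 8.83) and 2.24 times that in LDM (1.13 to 4.52), and miR-590-3p was 1.39 times its level in PMM (1.07 to 1.80) and 2.00 times that in LDM (1.5 to 2.67). In PMM, miR-590-3p was 1.44 times its level in LDM (1.11 to 1.88), while miR-590-5p was 0.819 of its level in LDM (0.628 to 1.07). With the 4 other totals, the log2 ratio of PMM over LDM was 0.039 to 0.29 for miR-590-3p, with intervals that include 0 in each. For miR-590-5p it was -0.78 to -0.52, without intervals for these totals. Its lowest value, -0.78 by the trimmed mean of M values, lay outside the interval on raw reads, so this comparison also depends on the total. When levels were scaled to the sum of conserved reads instead, the log2 ratio of PL over LDM turned to -0.78 for miR-590-3p and to -0.62 for miR-330-5p, and that of PL over PMM was -1.07 for miR-590-3p and 0.40 for miR-330-5p. With the other 3 totals the log2 ratio of PL over LDM was above 0 for both arms. It was 1.20 for miR-590-3p and 1.36 for miR-330-5p without miR-26b-5p in the sum, and 0.67 and 0.83 by median of ratios. By the trimmed mean of M values it was 0.32 and 0.48, where the interval of miR-590-3p includes 0 (-0.094 to 0.736). Intervals of miR-330-5p were not computed with these totals, and its ratios rest on few reads. The sum of all conserved reads shifts every log2 ratio of PL over PMM by -1.54 and of PL over LDM by -1.78. In PMM over LDM, miR-330-5p was 0.583 of its level in LDM (0.247 to 1.32), an interval that includes 1, and miR-330-3p was 1.24 times its level (0.990 to 1.56) with raw reads but at a log2 ratio of -0.17 with the trimmed mean of M values. Reads of the same library divide out of an arm share, so none of these totals changes it.

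The conserved miRNAs are a small part of each library, at 23583 reads for PL, 16286 for PMM, and 12463 for LDM. The 4 arms held 0.670%, 2.82%, and 2.95% of these totals. Most of each total was miR-26b-5p alone, at 21348 for PL, 10208 for PMM, and 7833 for LDM. The 3 percentages therefore depend on this 1 miRNA, and the lower one for PL does not by itself show that the 4 arms were scarcer there. A limit of 3 reads corresponds to 0.327 RPM for PL, 0.163 RPM for PMM, and 0.181 RPM for LDM, below every level given for the 4 arms. Of 8 muscle miRNAs set as markers, 2 are in this table, and their arms summed to 18.8 RPM for PL, 51.1 RPM for PMM, and 81.4 RPM for LDM. PL had 44 reads of miR-1-3p, PMM had 892, and LDM had 1318, while miR-208a-3p, made from an intron of a cardiac myosin gene, had 118 for PL, 13 for PMM, and 1 for LDM. The muscle label is thus carried by few entries here, and the known porcine miRNAs were not analysed here. On raw reads, the summed level of the muscle list and of each list of other tissues with entries in this table was lowest in PL. The same held for miR-590-5p and miR-330-3p. The muscle sum is mostly miR-1-3p in PMM and LDM, while miR-208a-3p went the other way, with its most reads in PL. Intervals of these sums were not computed. The epithelial list (3 of 7 found, with miR-200c-3p at 0 in PL) summed to 0.981 RPM for PL, 4.23 RPM for PMM, and 1.93 RPM for LDM. The nervous tissue list (2 of 4 found, miR-219 and miR-138) had 0 reads in PL, where the limit of 3 reads is 0.327 RPM. It was at 10.24 RPM for PMM and 1.26 RPM for LDM, and in LDM only miR-219-3p had reads. The blood list (1 of 5 found, miR-223) was at 1.64 RPM for PL, 2.28 RPM for PMM, and 2.23 RPM for LDM. These levels rest on 15, 42, and 37 reads. The endothelial marker is not in this table. The part of other cell types, of the sequencing batch, and of base composition in the arm shares of miR-590 and miR-330 was not tested.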

How the data were processed

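The authors sequenced small RNA of PL on the Genome Analyzer GA-II and took PMM and LDM from their earlier data. For all 3 muscles they removed reads without adapter, reads shorter than 16 or longer than 29 nt, and junk reads, aligned the rest by BLAST with miRBase 19.0 precursors of pig and 24 other mammals, and placed them on Sscrofa10.2 (the build in the submitters' processing notes; the table heading says Sscrofa10). The table of conserved miRNAs holds, as deposited, whole read counts without normalization. A mark in place of a number was read as 0 (118 of 456 cells).

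RPM were computed with the raw reads that the study states as library totals (9.17 M for PL, 18.46 M for PMM, and 16.62 M for LDM). Identical sequences were merged, keeping the highest value listed for a library. Poisson, binomial, and odds ratio intervals are exact, at 95%. Hairpins were folded with RNAfold 2.7.2. miRNAs named beside the 4 arms are the 3 nearest precursors of each, those sharing a seed, and listed cell type markers. miR-26b-5p is named besides, as the miRNA left out of one library total. The members and lists were chosen with earlier results of these data known, and with 1 library per muscle and members chosen on these values, no test was run. The arm ratio code was tested on simulated reads, at a greater depth than that of miR-590 and miR-330. That test does not show the precision at their depth. Scripts ran under Python 3.11.15 (numpy 2.4.6; scipy 1.17.1; matplotlib 3.10.9).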

Additional observations from a re-analysis of the deposited data

How the results depend on the processing

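The 6 changes of the arm ratio of miR-590 and miR-330 kept their direction and stayed inside their 95% intervals with 1 read or no read added. With at least 11 reads on each arm, the added read has little weight. Summing every listed row, or keeping exact matches to the precursor alone, left these values unchanged. Those alternatives could not have moved them, so they are no check of these changes. The number of precursors past 2-fold was 12 of 18 in PL over PMM and 16 of 18 in PL over LDM, and with exact matches alone 6 and 10 of 12, as fewer positions are left. In PMM over LDM it was 6, and 14 with a fold of 1.5, a looser limit by construction. The number of miRNAs whose level differed over 1.5-fold between PMM and LDM was 76, and 47 with at least 10 reads, where fewer are left. When scaled to the sum of conserved reads, which is mostly miR-26b-5p, the log2 ratio of PL over LDM reversed to -0.78 for miR-590-3p and -0.62 for miR-330-5p, and without miR-26b-5p in the sum it was 1.20 and 1.36. The share of higher among miRNAs past 1.5-fold was 43.0% in PL over PMM and 49.4% in PL over LDM, against 16.5% and 24.2% with the sum of all conserved reads and 49.4% and 54.1% without miR-26b-5p in it. In PL over LDM it was 37.2% with the trimmed mean of M values. In PMM over LDM it was 75.0%, against 62.5% with size factors by median of ratios and 50% with the trimmed mean of M values. The cause of these shifts was not tested. No paired analysis was possible because there is 1 library per muscle, and no library could be left out. The precision of the arm shares is set by few reads, at 11 for the lowest arm of each precursor.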
